A study of Mus musculus with 44 samples.

Results

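Chromatin accessibility was followed from the morula (E2.75, in days of embryonic development) to the late morula (E3.25) in mouse embryos without OCT4, the POU-domain transcription factor encoded by Pou5f1. The comparison rests on 6 of the 44 ATAC-seq libraries of the series, 3 of Pou5f1-KO morulae and 3 of Pou5f1-KO late morulae, and was made over all 152393 peaks. The KO embryos lacked the maternal and the zygotic gene: Pou5f1 flox/flox females carrying Zp3-Cre, which is active in the oocyte, were mated with males heterozygous for a Pou5f1 allele that expresses the mKO2 fluorochrome, and embryos with the fluorescence were taken as KO. Embryos of the same matings without it, which lacked the maternal copy only, were the Ctrl, again with 3 libraries per stage. Each library was made from a pool of 20 to 40 whole embryos of superovulated females of the strain labelled B6C3F1, and the morulae were not treated with the MEK inhibitor that was given to the inner cell masses of later stages. All groups compared here thus carried the maternal deletion, and a library averages the outer and inner cells of many embryos. The labels do not tell whether the pools of a group came from separate matings, so the p-values rest on the spread between libraries. That spread was estimated within the groups of all 44 libraries of the series, and not from the morula libraries alone.

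Between these stages the embryo compacts further and the outer cells polarize and enter the trophectoderm, the epithelium that pumps fluid into the blastocyst cavity, whereas the inner cells keep the pluripotency factors. CDX2, TFAP2C, GATA3 and TEAD4 are known activators of the trophectoderm programme, and OCT4 with SOX2 binds a composite OCT-SOX element at enhancers of the inner cells. In ATAC-seq the transposase Tn5 inserts adapters into open DNA, so that the number of insertions in a window measures its accessibility. Values are given as rlog, a log2-scaled and depth-adjusted insertion count, and differences are late morula minus morula.

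Windows that changed in KO embryos and hold the words described later are shown here to make the sequence side of the result visible. They are 200 bp peaks of the genome build GRCm38, plus strand, 5′ to 3′, taken among the peaks named in this text that do not overlap an annotated exon. In the 4 windows that gained accessibility the capitals mark the CDX word TTTATNG or, at Atp1b1, the GRHL word AACNNGTT, on either strand. The Mcph1 window (chr8:18781454-18781653) lies in an intron of the gene for microcephalin, the Hk2 window (chr6:82769093-82769292) in an intron of the hexokinase 2 gene, the Dab2 window (chr15:6414523-6414722) in an intron of the gene for an endocytic adaptor, and the Atp1b1 window (chr1:164458846-164459045) upstream of the gene for the beta subunit of the sodium pump.
Mcph1: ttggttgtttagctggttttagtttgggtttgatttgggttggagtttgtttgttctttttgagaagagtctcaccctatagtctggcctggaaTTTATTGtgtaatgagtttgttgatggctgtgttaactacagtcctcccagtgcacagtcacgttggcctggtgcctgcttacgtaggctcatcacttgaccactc
Hk2: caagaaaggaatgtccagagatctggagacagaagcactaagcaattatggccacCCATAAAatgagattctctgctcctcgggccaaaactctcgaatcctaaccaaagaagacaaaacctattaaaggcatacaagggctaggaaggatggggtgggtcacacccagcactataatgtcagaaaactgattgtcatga
Dab2: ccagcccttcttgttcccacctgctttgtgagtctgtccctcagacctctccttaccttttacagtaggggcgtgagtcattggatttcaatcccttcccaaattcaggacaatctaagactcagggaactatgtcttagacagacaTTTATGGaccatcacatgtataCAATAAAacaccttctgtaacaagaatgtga
Atp1b1: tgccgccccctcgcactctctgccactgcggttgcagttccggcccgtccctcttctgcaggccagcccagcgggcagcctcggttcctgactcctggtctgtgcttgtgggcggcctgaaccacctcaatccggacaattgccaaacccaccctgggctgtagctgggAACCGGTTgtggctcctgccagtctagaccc

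In the 2 windows shown that lost accessibility the capitals mark the OBOX word GGATTA, or its complement TAATCC, which is the core bound by homeodomain factors of the OBOX, OTX and CRX kind. The Socs3 window (chr11:117972289-117972488) is intergenic, and the Tulp1 window (chr17:28357645-28357844), near Tead3, is intronic. The capitals are embedded in soft-masked repeat sequence, which makes up 57.5% of the Socs3 window and 95% of the Tulp1 window.
Socs3: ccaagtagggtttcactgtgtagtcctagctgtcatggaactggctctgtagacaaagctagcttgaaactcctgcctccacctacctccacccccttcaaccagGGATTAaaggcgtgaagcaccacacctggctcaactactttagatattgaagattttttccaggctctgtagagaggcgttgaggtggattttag
Tulp1: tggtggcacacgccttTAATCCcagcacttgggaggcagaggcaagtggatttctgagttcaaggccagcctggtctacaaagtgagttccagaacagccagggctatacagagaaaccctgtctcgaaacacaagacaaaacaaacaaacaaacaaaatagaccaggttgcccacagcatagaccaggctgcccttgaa

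The libraries were compared first. Across all peaks, KO morula libraries correlated with each other at 0.82 to 0.85 and KO late morula libraries at 0.86 to 0.88, whereas KO morula and KO late morula libraries correlated at 0.75 to 0.85. The mean rlog of a library ranged from 2.48 to 2.67 in the KO groups and from 2.53 to 2.67 in Ctrl, and the number of insertions behind a value is unknown. Of 7 markers of the morula, all had a peak within 1 kb of a start site, and these 12 peaks averaged between 3.98 and 4.30 in the 6 KO libraries. Of 7 cumulus and granulosa markers, 2 had a peak, and these 2 peaks averaged between 3.10 and 4.23. The part of such somatic cells in the stage differences was not tested.

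The targeted locus was read at 3 peaks within 2 kb of a Pou5f1 start site, none of which was called between stages in KO embryos. At the promoter peak (chr17:35505888-35506087) the KO morula libraries read 4.21, 5.01 and 5.33 and the KO late morula libraries 3.72, 3.96 and 4.55. The groups overlap, and the difference was -0.77 ± 0.38 (SE, limma adjusted p = 0.28), against -1.18 ± 0.38 in Ctrl (limma adjusted p = 0.04). At the intronic peak (chr17:35506842-35507041) the KO libraries went from 3.18, 3.59 and 3.47 to 3.95, 4.08 and 5.12, without overlap (limma adjusted p = 0.28). The peak in a coding exon (chr17:35509358-35509557) read 3.08, 3.30 and 2.22 in KO morulae and 1.72, 1.48 and 1.60 in KO late morulae, a difference of -1.26 ± 0.50 (SE, limma adjusted p = 0.15). In Ctrl it read 2.62, 2.07 and 2.53 in morulae and 1.46, 3.17 and 2.98 in late morulae. By value, the signal at this exon was thus not lower in KO than in Ctrl morulae, and in late morulae the KO and Ctrl libraries overlap. The floxed allele loses the exons after the first, whereas the mKO2 allele is described as carrying a cassette in the first intron, and whether it keeps the later exons is not settled here, although the study's text also speaks of them as removed. By immunostaining, the study reports that embryos with mKO2 had lost the OCT4 protein, which was not analysed here.

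Without OCT4, 2829 peaks gained and 2308 peaks lost accessibility from morula to late morula at an adjusted p under 0.05, which is 1.86% and 1.51% of all peaks. The gained peaks had a median difference of 1.71 and the lost peaks of -1.79, where the median over all peaks was 0.07. In Ctrl embryos 5560 peaks gained and 4255 lost accessibility, 3.65% and 2.79% of all peaks, with medians of 1.66 and -1.74. Every KO late morula library lay above every KO morula library at 2717 of the gained peaks, and below at 2144 of the lost peaks; over all peaks these orders were seen at 12.5% and 9.01%. The counts of both genotypes leaned on single libraries. In KO, 568 peaks rose and 470 fell without the late morula replicate 1, 1462 and 876 without the morula replicate 1, 1523 and 1346 without the late morula replicate 3, 1663 rose without the morula replicate 2, 1868 rose without the late morula replicate 2 and 1535 fell without the morula replicate 3. In Ctrl, 2454 peaks rose and 1893 fell without the late morula replicate 1, 3332 and 2404 without the morula replicate 2, 3315 and 2554 without the late morula replicate 3, 3177 rose without the morula replicate 1, 3140 rose without the late morula replicate 2 and 2825 fell without the morula replicate 3. Centring each library on its median gave 2077 risen and 2904 fallen peaks in KO and 4402 and 5162 in Ctrl. Quantile normalization gave 3090 and 3325 in KO and 6545 and 6837 in Ctrl, so the excess of gains over losses turned round with the scaling in both genotypes.

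The KO embryos were then asked for the changes that Ctrl embryos made. The KO libraries did not enter the Ctrl stage differences, but the comparisons are not separate tests, since both come from 1 fit and share the standard error of each peak. The embryos also came from the same matings, and KO and Ctrl libraries of a stage with the same replicate number deviated from their group means together, with correlations of 0.048 to 0.15 in morulae and 0.11 to 0.19 in late morulae. The shares that follow are therefore descriptions, and what the shared error and deviations add to them was not tested. Of the 5560 peaks that rose in Ctrl, 5311 (95.5%) had a positive difference in KO and 1305 (23.5%) passed the test there. Of the 4255 peaks that fell in Ctrl, 4051 (95.2%) had a negative difference in KO and 1018 (23.9%) passed. The shares that passed were 6.47% of the risen and 5.69% of the fallen peaks without the KO late morula replicate 1, 13.3% and 10.13% without the KO morula replicate 1, 15.5% of each without the KO late morula replicate 3, and 15.1% of the risen without the KO morula replicate 2. Over all peaks, 69.5% had the same sign in KO and Ctrl. The median KO difference was 1.00 over the peaks risen in Ctrl and -1.07 over those fallen in Ctrl. In the other direction, 1305 (46.1%) of the peaks risen in KO and 1018 (44.1%) of those fallen in KO were called in Ctrl, with a median Ctrl difference of 1.26 and -1.31. These shares were 28.8% and 24.4% without the Ctrl late morula replicate 1, and that of the risen peaks 30.5% without the Ctrl morula replicate 1. Since each set was chosen in 1 genotype, the sizes are not compared between genotypes here.

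The difference between the stage changes of KO and Ctrl embryos was tested in the same model. No peak passed (0%), and 5863 peaks, 3.85% of all, had an unadjusted p under 0.05 in limma, 2831 of them with a more positive and 3032 with a more negative change in KO. Hence the 7491 peaks called in Ctrl only, and the 2813 called in KO only, were not shown to differ between the genotypes. The median standard error of this difference was 0.70, so that its 95% interval, not adjusted for the number of peaks, reached 1.39 to either side at a typical peak. A single peak was called in opposite directions, and is named here after its values were seen. It lies upstream of Evl, the gene for an actin-regulating ENA/VASP protein (chr12:108553292-108553491), and fell by 1.60 on the log2 scale in KO (limma adjusted p = 0.044) while it rose by 1.69 in Ctrl (limma adjusted p = 0.02), but the KO call was lost whichever KO library was left out, and the difference of -3.29 ± 0.69 had a limma adjusted p of 0.70.

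**Figure D1:**
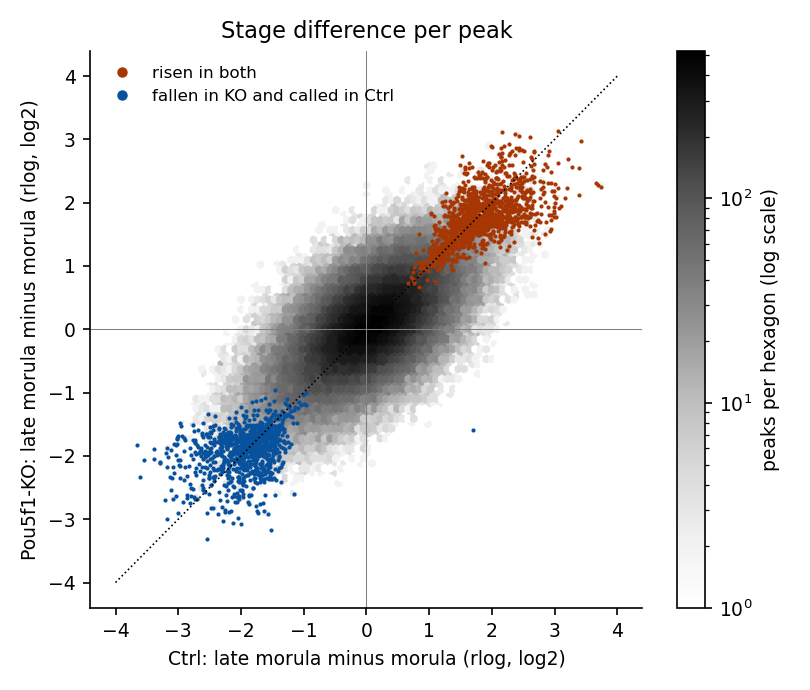
Stage difference of each of the 152393 peaks in Ctrl (x axis) and in Pou5f1-KO embryos (y axis), in rlog units on the log2 scale; grey hexagons count peaks, coloured points are peaks called in both genotypes, and the dotted line marks equal differences. The 1305 peaks risen and the 1018 fallen in both lie in the upper right and lower left corners, and the only coloured point outside them is the peak upstream of Evl.

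How far the embryos moved was measured on the line from the mean Ctrl morula, set to 0, to the mean Ctrl late morula, set to 1, with every Ctrl library scored on lines made without it. The Ctrl morula libraries scored 0.27, 0.23 and 0.31 and the Ctrl late morula libraries 0.86, 0.77 and 0.78. The KO morula libraries scored 0.13, 0.21 and 0.19 and the KO late morula libraries 0.73, 0.60 and 0.60. The KO stages were thus apart without overlap. The KO step of 0.47 was 87.4% of the Ctrl step of 0.53, and at each stage all KO libraries lay below the lowest Ctrl library. KO libraries share deviations with the Ctrl library of the same number, which stays in the lines that score them. On the lines made without the Ctrl libraries of its number, a setting chosen after seeing the data, the KO libraries scored 0.13, 0.21 and 0.24 in morulae and 0.71, 0.57 and 0.61 in late morulae. The KO step was then 0.43, 80.8% of the Ctrl step, and the KO and Ctrl morulae overlapped while the late morulae did not. With 3 libraries a group, an exact permutation test cannot go below 0.1, and none was run. The embryos of the late morula replicate 1, on which the count of calls leaned, scored highest among the KO libraries.

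**Figure D2:**
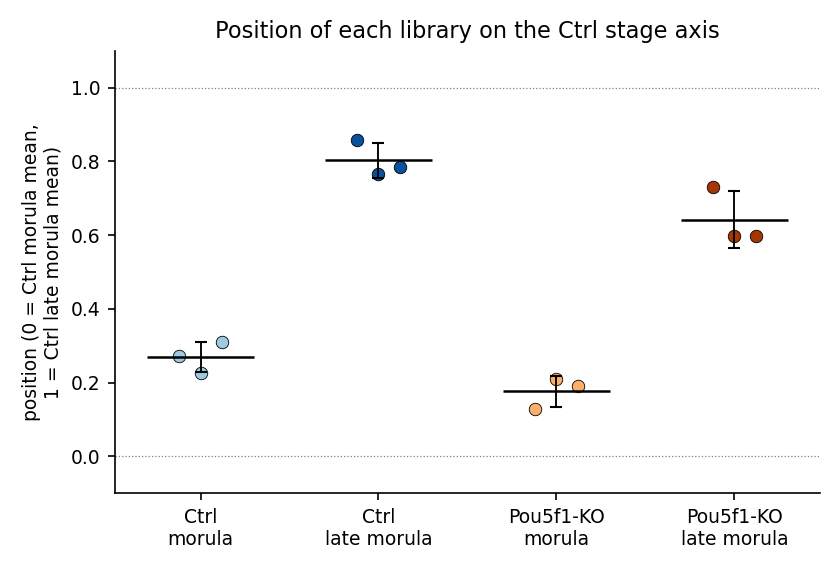
Position of each morula library on the Ctrl stage axis (no unit; 0 is the mean Ctrl morula and 1 the mean Ctrl late morula, dotted lines); points are libraries, horizontal lines group means and bars the SD over 3 libraries. KO morulae averaged 0.18 ± 0.042 and KO late morulae 0.64 ± 0.077. Ctrl libraries, scored on lines made without them, averaged 0.27 in morulae and 0.80 in late morulae. The KO positions are to be read beside these means and not beside 0 and 1. The KO late morula libraries sit between the Ctrl morula and the Ctrl late morula libraries.

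The largest gains without OCT4 lay in introns or upstream of genes. The most strongly gained peak lies upstream of Sh3bgrl2 (chr9:83545322-83545521), where the KO morula libraries read 1.14, 1.40 and 0.77 and the KO late morula libraries 4.27, 3.88 and 4.54. The rule that named these peaks took only those whose KO stages do not overlap. The difference of 3.13 ± 0.48 (SE, limma adjusted p = 1.3e-05) stood beside 3.06 in Ctrl. The other 5 are in introns of Tgm5, a transglutaminase gene (3.12), of Mcph1 (3.08), of Foxj3, a forkhead factor gene (3.06), of Mthfd1, which serves folate metabolism (3.03), and of Cep55, which serves abscission (2.98). In Ctrl they differed by 2.16, 2.37, 2.44, 2.61 and 3.42, and all 5 were called there.

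The largest losses were named by the same rule, and all 12 of these gains and losses remained called whichever of the 6 KO libraries was left out. An intergenic peak on chromosome 8 (chr8:5762011-5762210), of which 93% is soft-masked, read 5.85, 4.87 and 4.64 in KO morulae and 1.70, 2.52 and 1.21 in KO late morulae. The difference was -3.32 ± 0.53 (SE, limma adjusted p = 2.3e-05), and -2.54 in Ctrl. At a peak in an intron of Pds5b, the gene for a cohesin regulator, the KO libraries went from 2.73, 2.33 and 2.15 to -0.74, -1.07 and -0.17. The peaks in an intron of Coro1a (-3.17), in intergenic sequence of chromosome 14 (-3.17), near Cstad (-3.07) and near Sae1 (-3.03) complete the 6 largest losses. In Ctrl these 4 differed by -1.52, -1.37, -1.995 and -2.29, and all but the one on chromosome 14 were called.

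The 6 peaks with the largest changes in Ctrl were all called in KO in the same direction. As they were chosen as the extremes of Ctrl, their sizes are not compared between the genotypes. Those in Bcar3, in intergenic sequence of chromosome 3 and in Tanc1 rose by 2.25, 2.28 and 2.31 in KO, against 3.74, 3.70 and 3.66 in Ctrl. Those in Ubxn7, in Ssc4d and near Tigd3 fell by 1.83, 2.34 and 2.06 on the log2 scale in KO, against 3.66, 3.60 and 3.54 in Ctrl. Without the KO late morula replicate 1, 4 of these KO calls were lost. The difference was then 1.88 at the peak of chromosome 3 (limma adjusted p = 0.062), -1.52 in Ubxn7 (limma adjusted p = 0.23), -1.80 in Ssc4d (limma adjusted p = 0.077) and -1.88 near Tigd3 (limma adjusted p = 0.071). In Ubxn7 the KO groups overlapped, since morula replicate 2 read 0.39 where the other KO morula libraries read 3.89 and 3.39.

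Genes of the trophectoderm were read through the 92 peaks within 10 kb of a start site of 12 regulators. In KO embryos 7 of these peaks rose and 1 fell, 7.61% and 1.09% beside 1.86% and 1.51% of all peaks, and 9 rose and 2 fell in Ctrl, 9.78% and 2.17% beside 3.65% and 2.79% of all peaks, with a median difference of 0.20 in KO and 0.34 in Ctrl. Most of these calls rested on the late morula replicate 1, without which 1 peak rose and 0 fell in KO. The peak at the start site of Tfap2a (chr13:40738280-40738479), which encodes an AP-2 factor, read 1.26, 1.53 and 0.87 in KO morulae and 4.49, 3.81 and 3.83 in KO late morulae. This is a 7.06-fold gain on the rlog scale, with a difference of 2.82 ± 0.46 (SE, limma adjusted p = 4.1e-05), close by value to 2.67 in Ctrl, and it kept a limma adjusted p of 0.0033 without the late morula replicate 1. The peak in a UTR of Cdx2, next to its start site (chr5:147307086-147307285) read 4.20, 3.13 and 3.67 in KO morulae and 5.49, 4.94 and 4.77 in KO late morulae. It rose by 1.40 ± 0.36 (SE, limma adjusted p = 0.013), where Ctrl differed by 0.95 (limma adjusted p = 0.093), and without the late morula replicate 1 its KO difference was 1.19 (limma adjusted p = 0.15). An intronic peak of Elf5, an ETS factor of the later trophoblast, rose from 0.24, 0.39 and 0.022 to 2.60, 1.65 and 1.92 in KO.

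The epithelium and the cavity were read at 18 genes with 163 peaks, of which 7 rose and 2 fell in KO and 15 rose and 1 fell in Ctrl. The shares in KO were 4.29% and 1.23% beside 1.86% and 1.51% of all peaks, and in Ctrl 9.2% and 0.61% beside 3.65% and 2.79%, with a median of 0.26 in KO and 0.24 in Ctrl. Without the late morula replicate 1, no peak of this list was called in KO. At Krt8, which encodes a keratin of simple epithelia, a peak upstream (chr15:102006437-102006636) read 0.935, 1.162 and 1.938 in KO morulae and 4.106, 3.254 and 2.752 in KO late morulae. The libraries of the stages do not overlap, and the difference was 2.03 ± 0.50 (SE, limma adjusted p = 0.0097) in KO and 2.04 in Ctrl. The Atp1b1 window shown above went from 3.37, 2.66 and 2.48 to 4.763, 4.497 and 4.334, a difference of 1.70 ± 0.43 (SE, limma adjusted p = 0.011), and 1.74 in Ctrl.

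Glucose use changes at these stages, and 13 genes of glycolysis and pyruvate use had 119 peaks, of which 5 rose and 0 fell in KO, 4.2% and 0% beside 1.86% and 1.51% of all peaks, and 13 rose and 5 fell in Ctrl, 10.9% and 4.2% beside 3.65% and 2.79%. All the 3 peaks named here lie at Hk2, which encodes the hexokinase that starts glycolysis, and rose by 2.02, 1.54 and 1.38 in KO and differed by 2.67, 2.21 and 1.13 in Ctrl. Without the late morula replicate 1, 0 peaks of the list were called in KO.

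The naive pluripotency genes were read next. Of 144 peaks at 17 of 18 genes, 2 rose and 2 fell in KO, 1.39% each beside 1.86% and 1.51% of all peaks, where 5 rose and 11 fell in Ctrl, 3.47% and 7.64% beside 3.65% and 2.79%. The share fallen in KO was thus near that of all peaks and the share fallen in Ctrl above it, and no peak was called as different between the genotypes. The medians were -0.24 in KO and -0.13 in Ctrl, both below the 0.07 and 0.08 of all peaks. Without the late morula replicate 1, 1 peak rose and 0 fell. The peak in a coding exon of Nr5a2, an orphan receptor of early embryos, holds an OCT-SOX match and read 4.62, 4.08 and 3.17 in KO morulae and 2.54, 2.98 and 1.89 in KO late morulae. It fell by 1.49 ± 0.44 (SE, limma adjusted p = 0.038) on the log2 scale, and differed by -0.88 in Ctrl (limma adjusted p = 0.24), with Ctrl groups that overlap. Peaks near Utf1 and in Tfcp2l1 rose, by 1.49 and 1.18 in KO beside 1.36 and 1.54 in Ctrl. The peak near Utf1 lies in an exon of Kndc1, its nearest gene, and is not the Utf1 enhancer whose position the study lists.

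The other lists are to be read beside the 1.86% of all peaks that rose and the 1.51% that fell in KO, and the 3.65% and 2.79% in Ctrl. At 13 primitive endoderm genes 3 of 83 peaks rose (3.61%) and 0 fell, where 4 rose (4.82%) and 0 fell in Ctrl, and the risen ones are intronic peaks of Hnf4a (1.62) and of Dab2 (2.21 and 1.75). At 19 Hippo pathway genes 3 of 193 peaks rose and 2 fell (1.55% and 1.04%), where 11 rose and 2 fell in Ctrl (5.7% and 1.04%). KO gains were seen at Amot (1.16) and near Tead2, in an intron of Dkkl1 (1.80). A KO loss was seen in the Tulp1 window near Tead3 (-2.29). At 12 FGF and ERK genes 4 of 110 peaks rose and 2 fell (3.64% and 1.82%), where 6 rose and 5 fell in Ctrl (5.45% and 4.55%). A peak in a UTR of Egr1, an immediate early gene of ERK signalling, rose by 1.53 ± 0.31 (SE, limma adjusted p = 0.00098). Peaks within 10 kb of the start sites of Fgfr2 and Fgfr1, which encode FGF receptors, rose by 1.58 and 1.92. The peak of Fgfr2 is intronic, whereas that near Fgfr1 lies in a UTR of Letm2, its nearest gene. At 8 LIF and STAT3 genes 1 of 62 peaks rose, at Lifr (1.64), and 1 fell, near Socs3 (-1.703), a feedback inhibitor of the pathway, which is 1.61% each, where 3 rose and 3 fell in Ctrl, 4.84% each. The peaks at Amot, near Tead2, at Fgfr2, near Fgfr1 and at Lifr were not called in Ctrl. Their Ctrl differences were 0.61, 1.19, 0.66, 1.23 and 0.43 (limma adjusted p = 0.29, 0.16, 0.32, 0.14 and 0.60). Of 11 cleavage stage genes, 7 had peaks, 21 in all, of which 4.76% rose and 4.76% fell in KO, and 0 rose and 4 (19.05%) fell in Ctrl. In KO 1 rose near Zfp352 (1.74, and -0.024 in Ctrl) and 1 fell at Obox6 (-1.80, and -2.48 in Ctrl), where reads of near-identical Obox copies can be lost to the filter on unique alignments. None of these differences was called between KO and Ctrl. Without the late morula replicate 1, 2 primitive endoderm, 2 FGF and ERK and 1 LIF and STAT3 peaks rose, and no peak of the Hippo or cleavage stage list was called. Of the 25 peaks named at all the lists, 3 remained called whichever KO library was left out, those at Tfap2a, Hnf4a and Egr1.

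**Figure D3:**
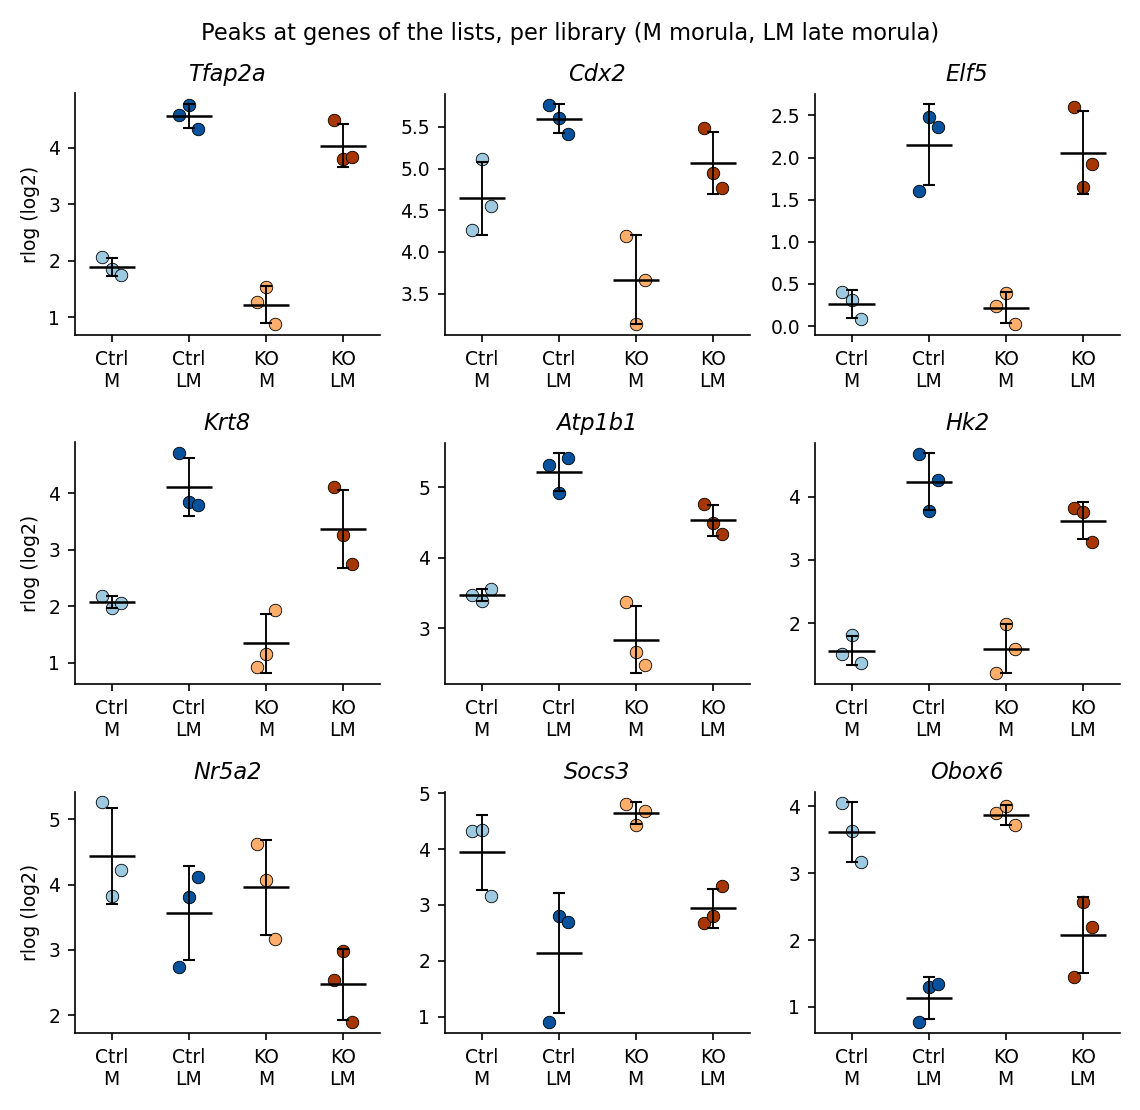
Rlog values (log2 scale, y axis) of 9 peaks at genes of the lists in Ctrl and Pou5f1-KO morulae (M) and late morulae (LM); points are libraries, horizontal lines means and bars the SD over 3 libraries, and the y axes do not start at 0. The KO points of Tfap2a, Cdx2, Elf5, Krt8, Atp1b1 and Hk2 are higher in late morulae without overlap, and those of Nr5a2, Socs3 and Obox6 lower.

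Short words known from the binding sites of embryonic factors were counted in the changed peaks. In KO embryos the CDX word TTTATNG was found in 599 (21.2%) of the gained peaks and 126 (5.46%) of the lost peaks, beside 9.23% of all peaks. The GATA word AGATAA was in 27.4% of the gained and 20.2% of the lost peaks, beside 17.5% of all, and the GRHL word AACNNGTT, of grainyhead-like factors of epithelia, in 5.94% and 1.99%, beside 2.86%. The TEAD word GGAATG, through which the Hippo pathway acts, was in 20.7% of the gained peaks, close by value to the 18.9% of all peaks, and in 11.9% of the lost. The AP-1 word TGANTCA was in 9.37% and 5.24%, beside 7.75%. The TFAP2 word GCCNNNGGC was in 11.3% of the gained and 7.02% of the lost peaks beside 11% of all, and the ETS word CCGGAAGT in 1.1% and 0.17% beside 0.97%. For the ESRRB and NR5A2 word AAGGTCA the shares were 7% and 11%, beside 9.66%, and for the KLF word GGGTGTGG 5.44% and 8.71%, beside 8.86%. The SOX word AACAATG (2.62%, 3.51% and 3.04%) and the T-box word AGGTGTGA (1.98%, 2.77% and 2.62%) stood near the share of all peaks, given last. The STAT word TTCNNNGAA was in 5.97% of the gained and 4.64% of the lost peaks, beside 5.76%. Some shares moved among peaks without a soft-masked base, a setting chosen after seeing the data. There the STAT word was in 8.73% and the ETS word in 3 (1.09%) of the 275 lost KO peaks, beside 5.53% and 1.65% of all. In the gained peaks of Ctrl the CDX word stood in 23.9% and the GRHL word in 5.76%. The GATA word stood in 21.7% of the gained and 22.4% of the lost Ctrl peaks, so its excess in gains over losses was not seen in Ctrl. All words were searched on both strands, without mismatch unless stated, and a match is not a bound site.

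The OCT-SOX word, named here only and searched with up to 2 mismatches, was rarer by value among the gains without OCT4 than among all peaks, and not among the losses. It stood in 8 (0.28%) of the gained and 32 (1.39%) of the lost KO peaks, beside 1.19% of all peaks. The OCT word ATGCAAAT was in 0.88% of the gained and 2.04% of the lost peaks, beside 2.39%, and the CTCF word, searched with up to 1 mismatch, in 0.57% and 0.35%, beside 2.97%. CTCF is the insulator protein whose sites are open in most cells. Among the peaks without a soft-masked base, a setting chosen after seeing the data, the OCT-SOX word was in 0.22% of the gained and in 7 (2.55%) of the 275 lost KO peaks, beside 1.08% of all. Among the same peaks the OCT word was in 0.67% of the gained and 10 (3.64%) of the 275 lost KO peaks, beside 1.9% of all. Its share among the losses thus lay below that of all peaks in the main setting and above it here. In Ctrl the OCT-SOX word was in 0.41% of the gained and 1.58% of the lost peaks.

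Accessibility of the peaks with a word was also read in each library, as their mean rlog minus the mean of all peaks. CDX peaks stood at -0.35, -0.37 and -0.50 in KO morulae and at -0.14, -0.27 and -0.24 in KO late morulae, a rise of 0.19 without overlap, where Ctrl rose by 0.29. GRHL peaks rose from -0.19 to -0.047 on average in KO, a change of 0.15, and by 0.17 in Ctrl, in neither case with overlap. ETS peaks, fewer in number, rose by 0.24 in KO and 0.30 in Ctrl, and TFAP2 and AP-1 peaks by 0.077 each in KO, all without overlap. OCT, T-box and ESRRB/NR5A2 peaks changed by -0.23, -0.11 and -0.11 in KO, also without overlap. GATA and TEAD peaks changed by 0.030 and 0.020 in KO with groups that overlap, and by -0.036 and 0.017 in Ctrl, also with overlap. OCT-SOX peaks stood at -0.65, -0.97 and -1.29 in KO morulae and -1.22, -1.41 and -1.20 in KO late morulae, which overlap, and went from -0.52 to -0.81 on average in Ctrl. The decline of the OCT-SOX peaks was thus -0.30 by value in KO and -0.29 in Ctrl.

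**Figure D4:**
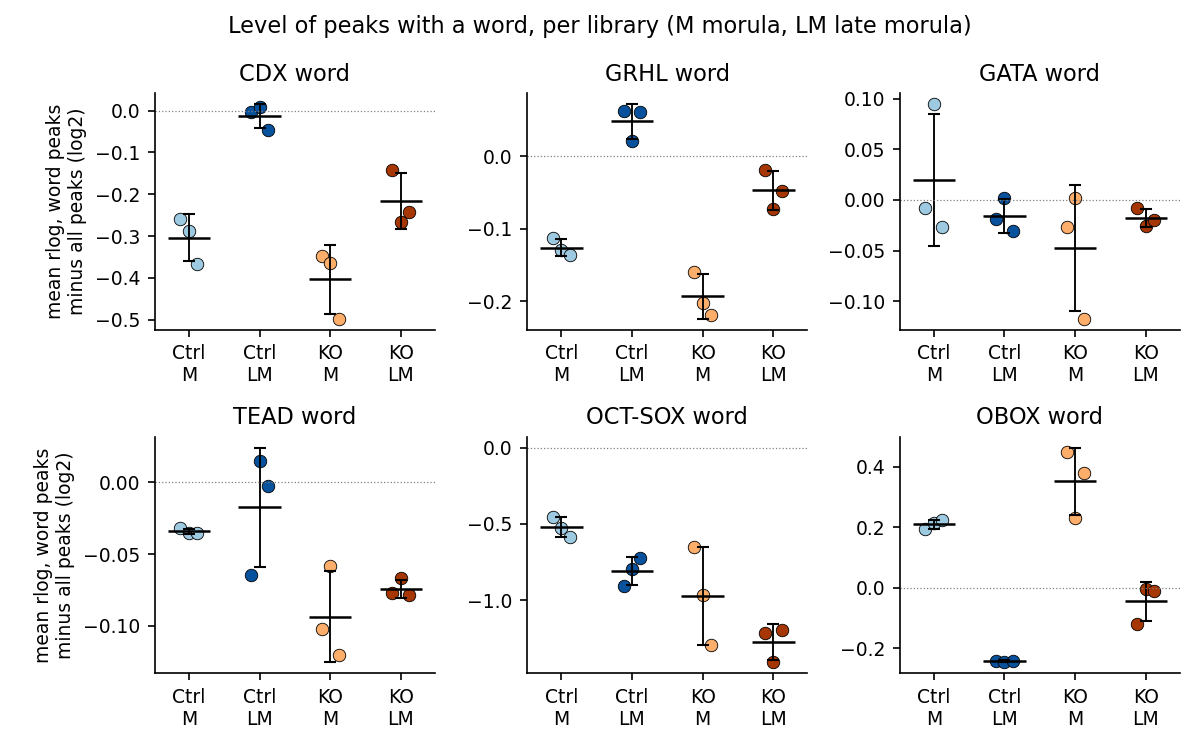
Mean rlog of the peaks that hold a word minus the mean of all peaks (log2 scale, y axis) in each library of Ctrl and Pou5f1-KO morulae (M) and late morulae (LM), for 6 words; points are libraries, lines means and bars the SD over 3 libraries, and 0 is dotted. In KO embryos the CDX and GRHL points are higher and the OBOX points lower in late morulae, without overlap.

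Many of the losses without OCT4 lay in repeat sequence with an OBOX word. The word GGATTA was found in 1045 (45.3%) of the lost KO peaks, in 158 (5.59%) of the gained peaks and in 11.5% of all peaks, and in 42.4% of the peaks lost in Ctrl. Soft-masked bases made up 51.8% of the lost and 14.3% of the gained KO peaks, beside 26.5% of all. Among the peaks without a soft-masked base, the word was in 13.5% of 275 lost and 4.67% of all peaks, and counting only matches outside soft-masked bases it was in 7.32% of the lost and 4.1% of all peaks. These last settings were chosen after seeing the data. OBOX peaks stood at 0.45, 0.23 and 0.38 above all peaks in KO morulae and at -0.12, -0.0033 and -0.011 in KO late morulae, a change of -0.40, and of -0.45 in Ctrl.

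The run of 14 bases that most lost KO peaks shared, on either strand, was read off these peaks and is therefore a description.
Shared run: ccttTAATCCcagc

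This run contains the complement of the OBOX word and is part of the consensus of B1, a short interspersed element of the mouse genome. It stood in 508 (22%) of the lost KO peaks, in 11 (0.39%) of the gained KO peaks and in 5215 (3.42%) of all peaks. In Ctrl, where it was not chosen, it stood in 804 (18.9%) of the lost and 15 (0.27%) of the gained peaks. The 5215 peaks with the run stood 0.80, 0.43 and 0.75 above all peaks in KO morulae and at -0.15, 0.079 and 0.038 in KO late morulae. In Ctrl they went from 0.32, 0.34 and 0.41 to -0.37, -0.40 and -0.40. The median difference of these peaks was -0.59 in KO and -0.65 in Ctrl, and 80.7% of them had a negative difference in KO beside 45.5% of all peaks. The loss was thus seen in each genotype, and the KO libraries stood above the Ctrl libraries of the same stage on average at either stage. How the filter on uniquely aligned reads acts on these copies was not tested.

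Gained and lost peaks also differed in level and in place. The mean rlog over all libraries was 3.15 in gained KO peaks, 1.81 in lost KO peaks and 2.59 in all peaks. What this difference in signal adds to the shares of words, repeats and places was not tested. Of the gained KO peaks, 267 (9.44%) lay within 100 bp of a start site, beside 7.79% of all peaks, and of the lost KO peaks 25 (1.08%). The gained KO peaks with a CDX word lay there in 2% of cases. The mean GC content was 50.5% in gained, 48.3% in lost and 51% in all peaks, with 4.47, 2.06 and 4.01 CpG per window. Ctrl had 10.14% and 1.13% of its gained and lost peaks within 100 bp of a start site.

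The later libraries of the same line, with 4 libraries per condition, were read at the peaks that changed in KO morulae. They come from inner cell masses isolated by immunosurgery and kept with 1 μM PD0325901, a MEK inhibitor, so that stage, tissue and treatment cannot be told apart, and only levels are given. The peaks gained in KO stood at 2.10 ± 0.025 in KO morulae, 3.83 ± 0.16 in KO late morulae, 3.14 ± 0.11 in the early and 3.65 ± 0.072 (SD, n = 4) in the late KO inner cell mass. In Ctrl they stood at 2.60, 3.88, 2.94 and 3.04. The late inner cell mass libraries of KO, 3.57 to 3.72, thus lay above those of Ctrl, 2.98 to 3.09. Over all peaks the late inner cell mass averaged 2.56 in KO and 2.63 in Ctrl, and over the peaks risen in Ctrl 3.37 in KO and 2.92 in Ctrl. The peaks lost in KO went from 3.44 ± 0.19 in KO morulae to 1.60 ± 0.34 in KO late morulae, and stood at 1.61 and 1.32 in the early and late KO inner cell mass. In Ctrl they stood at 2.90, 1.60, 1.83 and 1.64. Since the peaks were chosen on the KO morula and late morula libraries, the levels of those groups describe the choice.

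**Figure D5:**
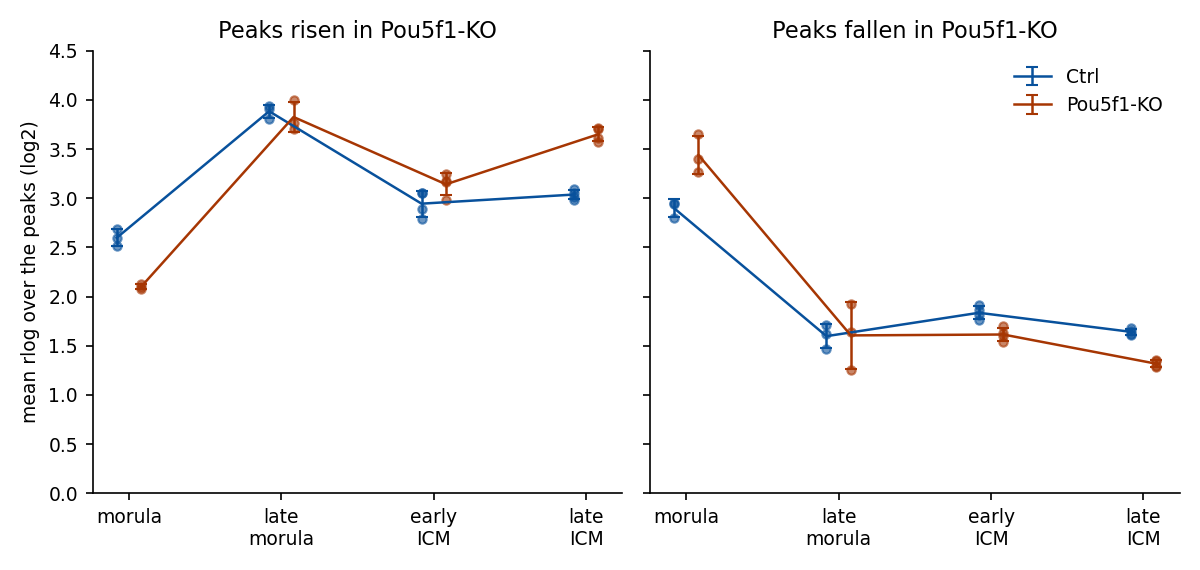
Mean rlog (log2 scale, y axis) over the 2829 peaks risen and the 2308 peaks fallen from morula to late morula in Pou5f1-KO embryos, in the morulae and inner cell masses (ICM) of the same line; points are libraries, lines join the means and bars are the SD over 3 (morulae) or 4 (ICM) libraries. The gained peaks stand higher in KO than in Ctrl late ICM, 3.65 against 3.04, and the lost peaks stand between 1.32 and 1.83 in the ICM groups.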

How the data were processed

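ATAC-seq libraries of 12 conditions, 44 in all, were available, of which the 12 libraries of Pou5f1-KO and Ctrl morulae and late morulae are compared. The authors trimmed the reads, aligned them to mm10 with Bowtie2, kept uniquely aligned reads, shifted the ends to the Tn5 insertion site, called peaks with MACS2, merged the summits into 200 bp windows found in more than 1 replicate, and counted insertions with BEDTools. The deposited log2 values were made by the authors from these counts with the rlog transformation of DESeq2, which shrinks weak peaks. Counts and depth are not given in the sources used here, and no count model was fitted. All columns of libraries were matched to a sample. The deposited means per condition were not used.

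Group means over the 44 libraries were fitted with limma 3.58.1 in R 4.3.3 (contrasts.fit, eBayes with trend, two-sided, no pseudocount, covariate or filter), with Benjamini-Hochberg adjustment over 152393 peaks and a threshold of 0.05. The fit was also run on simulated libraries with independent errors. These lack the shared deviations given next, so that run cannot show how such deviations act on the p-values. Between KO and Ctrl libraries of a stage, deviations from the group means correlated at 0.11 to 0.19 for the same replicate number in late morulae and at 0.048 to 0.15 in morulae, and at -0.13 to 0.0089 for different numbers; the pairing in late morulae thus comes from the data, as the labels do not say what a number marks. Other steps used Python 3.11.15, numpy 2.4.6, pandas 2.3.3 and scipy 1.17.1. Positions are of GRCm38 and genes of GENCODE vM21; soft-masked bases are those of the reference sequence.

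Peaks are named by this rule: the 6 largest gains and 6 largest losses in KO and the 3 largest of each in Ctrl among called peaks whose groups do not overlap, up to 3 called peaks with the smallest adjusted p per gene list (within 10 kb), and the peaks within 2 kb of Pou5f1. The question, lists and words were chosen with earlier results of these data known, so no pattern here is independent support for them. Alternatives were other sets of libraries, quantile normalization, median centring, a filter on weak peaks, a minimum difference of 1, a replicate block, and leaving out each library. The sequences of 2 further windows are not reported here.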

Additional observations from a re-analysis of the deposited data

How the results depend on the processing

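Calls between the stages of KO embryos depended on which library was left out, and less on which others shared the fit: the 12 morula libraries gave 2901 risen and 2501 fallen peaks and the 6 KO libraries 2483 and 2390. Leaving out 1 library at a time gave 568 to 2261 risen and 470 to 2100 fallen peaks in KO, and 2454 to 4834 and 1893 to 3146 in Ctrl. The share of Ctrl risen peaks also risen in KO ran from 6.47% to 33.2%, of Ctrl fallen peaks also fallen in KO from 5.69% to 29.7%, of KO risen peaks also risen in Ctrl from 28.8% to 63.4%, and of KO fallen peaks also fallen in Ctrl from 24.4% to 51.5%. The median KO difference over Ctrl risen peaks stayed within 0.92 to 1.14, and over Ctrl fallen peaks within -1.18 to -0.91. Without KO late morula replicate 1, a setting chosen after seeing the data, 8.1% of risen and 0.64% of fallen KO peaks lay within 100 bp of a start site. Of the 47 named peaks, 23 lost their KO call without that library, and none reversed under any alternative run. Testing the more accessible peaks, from the median of their mean rlog upward, gave 1876 risen and 682 fallen peaks in KO and 3425 and 1666 in Ctrl, and overlaps of 28.2% of Ctrl risen, 51.5% of KO risen and 17.8% of Ctrl fallen peaks; fewer peaks were tested. Quantile normalization gave 6837 fallen peaks in Ctrl, overlaps of 48.8% of KO risen and 48.9% of KO fallen peaks, and words in 25.5% (GATA, risen), 42.6% (OBOX, fallen) and 13.6% (TEAD, fallen) of peaks. The 12 morula libraries alone gave an overlap of 47.9% of KO fallen peaks. The cause of the latter shifts was not tested. Over 1 kb from every start site, the risen peaks held the CDX word in 23.9%, GATA in 31.5% and TEAD in 23.4%. Further settings were chosen after seeing the data. Among peaks without a soft-masked base, the share was 18.9% for CDX (risen), beside 8.08% of all such peaks. For OBOX, TEAD and ETS (fallen) it was 13.5%, 16% and 1.09%, beside 4.67%, 18.6% and 1.65% of all such peaks. For matches outside soft-masked bases the share was 17.5%, 24.8% and 17.2% for CDX, GATA and TEAD (risen) and 7.32% and 8.1% for OBOX and TEAD (fallen). Such matches were in 6.49%, 13.5%, 14.3% and 4.1% of all peaks for CDX, GATA, TEAD and OBOX. Within 1 kb of a start site lay 21.7% of risen and 7.76% of fallen KO peaks. Positions on the Ctrl axis moved by less than their spread under every alternative run. The difference of stage changes gave 0 calls under every alternative run.

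Deviations of libraries with the same number correlated at -0.028 to -0.0022 between KO stages, so the numbers do not pair the libraries across stages. With the number as a replicate block across stages, 3497 peaks rose and 2983 fell in KO and 6808 and 5705 in Ctrl. In a separate fit with the number as a replicate block within each stage, where KO and Ctrl share deviations, 0 peaks differed between the genotypes in their stage change. Depth limits these values in a way that is unknown, since no counts were given.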

Other observations

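The genes with the most changes were counted by the nearest protein-coding gene within 10 kb of a called peak. Of these, 23 genes had at least 3 peaks that rose in Pou5f1-KO embryos, and 6 genes had at least 3 that fell. Of all peaks, 1.86% rose and 1.51% fell in KO, and 3.65% and 2.79% in Ctrl. Wdr1 and Lpar1 had the most risen peaks and the others 3 each. Among those with 3, genes of actin, junctions and apical traffic were picked for their known roles, after the values were seen and without a test, so they say nothing of such genes as a group. Wdr1, which encodes a cofactor of cofilin in actin turnover, had 5 of its 12 peaks risen in KO and 4 in Ctrl, with a median difference of 0.95 in KO and 0.87 in Ctrl. Lpar1, a receptor of lysophosphatidic acid, had 4 of 16 peaks risen in KO and 3 in Ctrl. Actg1, the gene of cytoplasmic gamma-actin, had 3 of 6 peaks risen in KO and 3 in Ctrl, with medians of 0.74 and 1.11, and Lcp1, which encodes the actin bundler plastin 2, had 3 of 19 in KO and 3 in Ctrl. Dsc2, which encodes the desmosomal cadherin desmocollin 2, had 3 of 7 peaks risen in KO and 3 in Ctrl, with medians of 1.30 and 1.43. Myo5b, a motor of apical recycling endosomes, had 3 of 11 in KO and 3 in Ctrl. Some of the others with 3 risen peaks in KO had more in Ctrl and some had fewer. Bcar3, Hk2, Lrrfip1 and Trio had 4 each in Ctrl. Atf7ip had 3 of 21 peaks risen in KO and 0 in Ctrl, with medians of 0.18 and -0.043, and Rraga 3 of 6 in KO and 1 in Ctrl, with medians of 1.15 and 0.78. B230118H07Rik had 3 of 14 in KO and 1 in Ctrl, Ccdc162 3 of 18 in KO and 1 in Ctrl, and Lmo7 3 of 19 in KO and 1 in Ctrl. The difference between the genotypes was not called at any peak. Without the KO late morula replicate 1, 3 peaks of Wdr1, 2 of Lpar1 and 1 of Actg1 passed, and 0 of Lcp1, Dsc2, Myo5b and Atf7ip. Of Rraga, B230118H07Rik, Ccdc162 and Lmo7, 1 peak each passed. Among the genes with losses, Tdrd9, a helicase of transposon silencing in germ cells, had 3 of 9 peaks fallen in KO and 3 in Ctrl, and 0 in KO without that library. It was likewise picked for its known role. The other genes with 3 fallen peaks were Arrb1, Clpx, Dpf3, Spag9 and Wdr27. Without that library, 1 peak each of Arrb1, Dpf3 and Spag9 passed in KO, and 0 of Clpx and Wdr27.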
